A study of Mus musculus with 8 samples.

Results

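Protocadherins are the largest branch of the cadherin superfamily of calcium-dependent cell adhesion proteins, and most of them are made by neurons. The deposited count table held 54532 mouse genes, of which 69 were protein-coding rows with a protocadherin symbol. A row was kept when it had at least 10 counts in at least 2 libraries, which left 64 genes. Of these, 53 belonged to the alpha, beta and gamma clusters (12, 21 and 20 genes) and 11 were non-clustered. The table came from RNA sequencing of mouse brain in 4 groups of 2 libraries. The groups were wild-type (WT) mice without stress (mock), WT mice under chronic restraint stress, mice with cerebral amyloid angiopathy (CAA, amyloid deposited in the walls of brain vessels) without stress, and CAA mice under the same stress. All animals were perfused with buffered saline before the brain was taken. The strain and transgene of the CAA mice, the age and sex of the animals and the part of the brain used were not given in the sources used here. The titles number the libraries within a group and do not say that they came from different animals. In WT mock and in CAA stress the 2 libraries differed in sex-linked genes (counts below), so they did not come from the same animal. For WT stress and CAA mock this is not known. All p-values here compare groups with the spread among these libraries, which in those 2 groups may be technical.

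The clustered genes lie in 3 neighbouring arrays, and a single neuron uses only a few of them. In the alpha and gamma arrays each gene has its own large first exon, which encodes the outer and membrane-spanning part, and this is spliced to constant exons shared by the whole array, whereas each beta gene is a single-exon unit. The chosen promoters are opened by loss of DNA methylation and by looping through CTCF and cohesin, and the resulting combination of surface proteins lets a neuron tell its own branches from those of others. The non-clustered delta protocadherins are used in broader regional patterns and act in axon growth, sorting of cells and synapse remodelling.

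The libraries held 17275201 to 18894657 counts, and the protocadherins kept took 0.1232 to 0.1447% of them. The libraries differed in sex-linked genes and in markers of brain parts. WT mock 1 and CAA stress 1 had 4575 and 3340 counts of Xist and no count from the Y-linked genes examined, while the other 6 had at most 24 counts of Xist and 2260 to 2833 Y-linked counts. All 12 striatal markers were tested, and their mean log2 level relative to each gene's own mean was -2.03 in WT mock 1 and -1.94 in CAA mock 2, against 0.02 to 1.04 in the other libraries. The same measure for 16 choroid plexus markers was 1.95 in WT stress 2 and 1.62 in CAA stress 1, and at most 0.59 elsewhere. For 7 tested serotonin neuron markers it was 1.98 in CAA mock 2 and 1.61 in CAA stress 1, and below 0 in the other 6. Because these are bulk samples, fewer cells of a type and less RNA per cell cannot be told apart.

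In the mm10 build the 3 arrays lie on the plus strand of chromosome 18. The alpha rows span 36930184 to 37187661, the beta rows 37264938 to 37524479 and the gamma rows 37661793 to 37841873. In the GENCODE vM21 annotation, 68 of the 69 rows had the same coordinates. An alpha gene shared exon bases with 12 other protocadherins (13 for Pcdha11) and a gamma gene with 21, and a median of 46.4% of an alpha gene's exon bases and 54.8% of a gamma gene's belonged to it alone. For the beta and non-clustered genes this median was 100%. Reads from constant exons cannot be assigned to 1 gene, and how the authors' counting treated them was not given in the sources used here. Pcdhga10, with 0 exon bases of its own, had at most 2 counts a library. Reads in shared exons thus added almost nothing to its count. Levels of alpha and gamma genes are therefore uncertain. A median of 55.4% and 43.6% of their 100-base exon windows recurred letter for letter in another gene, and these windows include the shared exons. That share was 0.24% for the beta genes, with 7.73% as the highest (Pcdhb21), and 0 for every non-clustered gene.

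The 5 rows not kept were nearly silent or had little sequence of their own. Pcdhb1 (at most 3 counts a library) and the vascular Pcdh12, VE-cadherin-2 of endothelial cells (1 to 10 counts), had exons that no other gene covers. Pcdha4 (at most 4 counts), Pcdhga10 (at most 2 counts) and a second identifier of Pcdha11 (at most 1 count) had 404, 0 and 1268 exon bases of their own. Among the rows kept, 62 had 10 or more counts in all 8 libraries. Pcdha8, the weakest, had 9, 10, 11, 4, 8, 1, 8 and 7 counts and entered no test, which left 63 tested protocadherins.

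Per unit of length the non-clustered genes were the stronger set. Over the 8 libraries the median level was 6.44 FPKM (the deposited level, scaled for gene length and depth) for the 11 non-clustered genes and 1.03 FPKM for the 53 clustered genes, beside 3.54 FPKM over all 17182 genes tested. The median non-clustered level was 6.23 ± 1.27 times the median clustered level (SD over libraries, n = 8), with single libraries between 4.47 and 8.02. Counting only exon bases that belong to 1 gene, the ratio was 5.04. By array, the medians were 0.41 FPKM for alpha, 1.15 FPKM for beta and 1.27 FPKM for gamma. FPKM uses the whole exon length, of which alpha and gamma genes share a large part. Counts relative to library size (CPM), per kilobase of exon bases that belong to 1 gene, gave other distances. These medians were 0.89 CPM per kb for alpha, 1.17 for beta and 2.59 for gamma. By this measure alpha stood closer to beta, and gamma farther above beta, than by FPKM.

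The strongest non-clustered protocadherins were Pcdh9, Pcdh1, Pcdh7 and Pcdh10, at 18.5 ± 4.28, 17.1 ± 4.31, 16.5 ± 2.21 and 14.0 ± 1.45 FPKM (SD, n = 8), and these neighbours in the order overlapped within their spread. Pcdh17 followed at 7.08 ± 0.93 FPKM. Pcdh8 (6.44 ± 1.65), Pcdh19 (5.85 ± 1.37) and Pcdh20 (4.63 ± 1.38) overlapped as well. Pcdh11x stood at 2.27 ± 0.29 FPKM, and Pcdh18 and Pcdh15 were the lowest of the non-clustered genes at 0.81 ± 0.13 and 0.57 ± 0.11 FPKM.

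The delta-1 protocadherins have a long cytoplasmic tail with a binding motif for protein phosphatase 1. Values are given below in CPM (counts relative to library size, scaled by TMM factors) in the order WT mock 1 and 2, WT stress 1 and 2, CAA mock 1 and 2, CAA stress 1 and 2. Pcdh7 had 215.7, 174.2, 202.5, 179.6, 143.4, 179.3, 154.8 and 166.4 CPM. Pcdh1 had 161.7, 141.2, 151.8, 135.0, 161.8, 86.7, 154.6 and 225.8 CPM. The Pcdh1 values of the CAA groups spanned both the lowest and the highest library, and CAA stress 2 was 2.60 times CAA mock 2. Pcdh9 had 169.7, 107.6, 123.3, 109.1, 103.0, 173.9, 123.5 and 101.5 CPM. Its only values above 150 CPM, 169.7 and 173.9, came from WT mock 1 and CAA mock 2, the libraries low in striatal markers. Pcdh11x, on the X chromosome, ran from 24.5 CPM in CAA stress 2 to 36.3 CPM in WT stress 1 and WT mock 1.

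The delta-2 protocadherins include several that bind the WAVE complex, which drives branching of actin filaments. Pcdh10, which recruits that complex through Nckap1, had 212.6, 257.6, 252.8, 232.4, 213.8, 185.5, 214.9 and 229.4 CPM. The range of WT mock overlapped that of every other group, while both CAA mock libraries were below both CAA stress libraries, and these below both WT stress libraries. Pcdh17, a synaptic adhesion protein of corticostriatal circuits, had 69.1, 107.1, 92.6, 106.0, 96.8, 84.5, 91.0 and 96.5 CPM. Its lowest values, 69.1 and 84.5 CPM, were again those of WT mock 1 and CAA mock 2. Pcdh19, an X-linked gene mutated in an epilepsy that mainly affects heterozygous females, had 65.7, 47.4, 53.0, 59.1, 77.2, 88.4, 52.6 and 50.8 CPM. Both CAA mock libraries were above the other 6, and the libraries with high Xist counts, WT mock 1 and CAA stress 1, stood at 65.7 and 52.6 CPM. Pcdh8, known as arcadlin, is an activity-induced synaptic protein that removes N-cadherin from synapses, and it had 24.9, 26.4, 25.7, 21.99, 34.8, 24.8, 32.5 and 45.1 CPM. Of the CAA libraries, 3 exceeded every WT library and CAA mock 2 did not. Pcdh18 stayed between 3.28 and 5.68 CPM, with both extremes in the WT stress group.

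Pcdh20 and Pcdh15 belong to neither delta group. Pcdh20 had 41.5, 25.1, 24.0, 23.9, 26.6, 29.6, 17.3 and 17.5 CPM. All 4 mock libraries were above all 4 stress libraries, and the highest values, 41.5 and 29.6 CPM, were those of WT mock 1 and CAA mock 2. The part of the striatal difference in the levels of Pcdh9, Pcdh17 and Pcdh20 was not tested. Pcdh15, best known from the tip links of inner ear hair cells, lay between 10.5 and 18.2 CPM, with both the lowest and the highest library among the CAA groups.

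**Figure D1:**
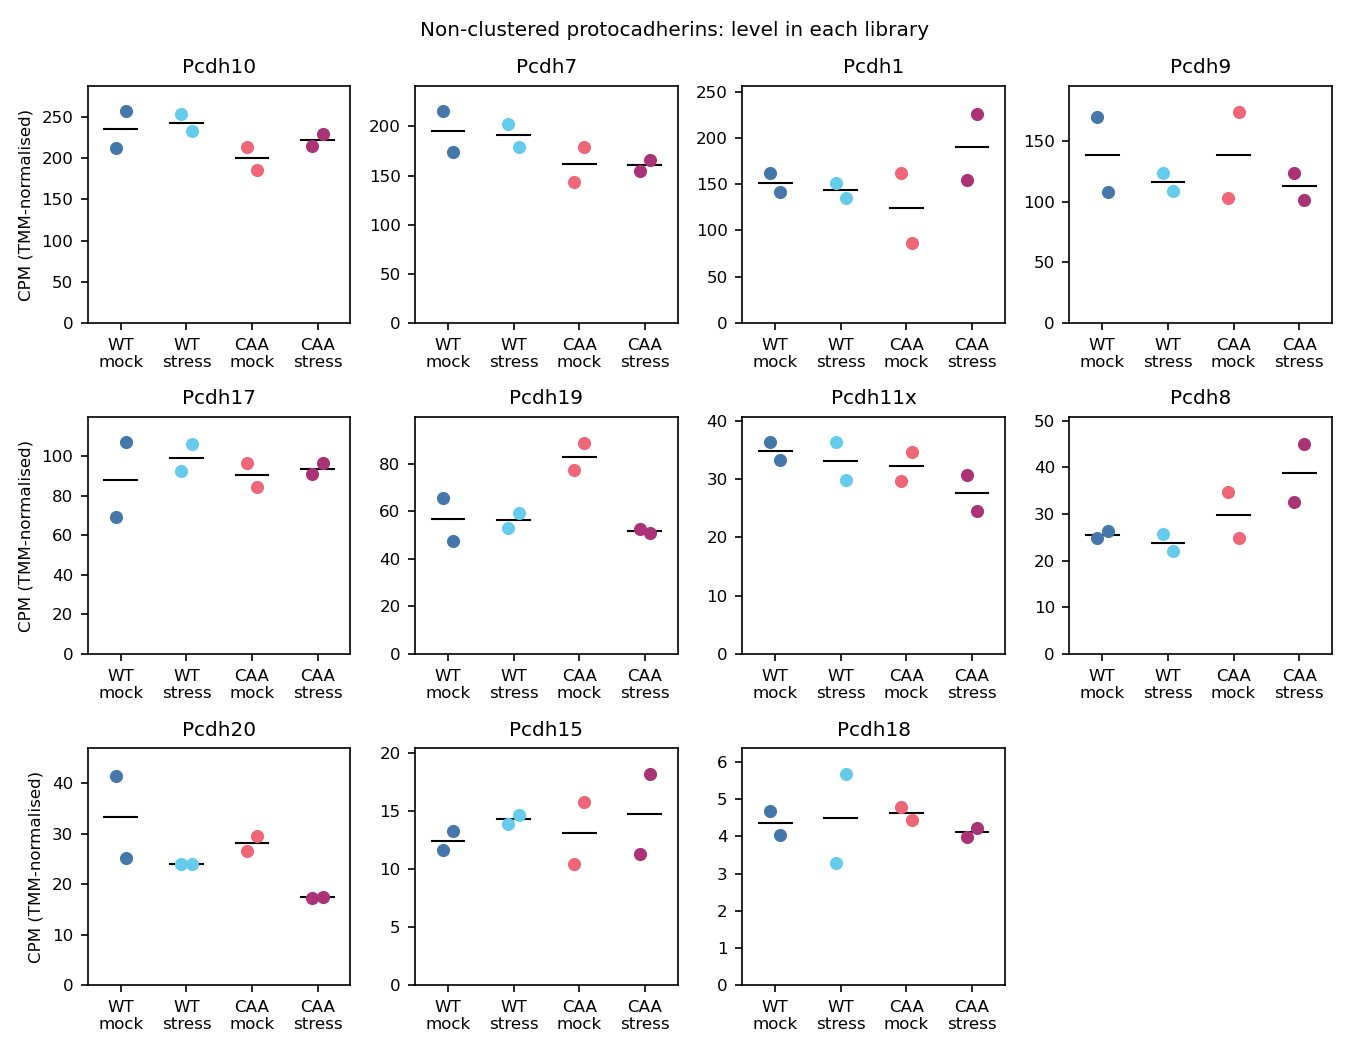
Level of each non-clustered protocadherin in CPM (y axis, from 0) in the 4 groups (x axis), with 1 point per library and a bar at the mean of the 2. Pcdh19 was highest in both CAA mock libraries (77.2 and 88.4 CPM) and Pcdh20 lowest in both CAA stress libraries (17.3 and 17.5 CPM).

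No window before a start was read for genes on the chromosome of the clustered arrays, which also carries Pcdh1. Their absence here is therefore not a result of the matching. RefSeq starts on GRCm38.p6, the assembly behind mm10, were matched for 9 of the 64 genes kept, all of them non-clustered and on other chromosomes. The 250 bases before the start are shown for the 4 of these genes on which the results turn most, 5′ to 3′ on the gene's strand, with the CCAAT motif or its reverse complement ATTGG in capitals. They lie at chr14:79771313-79771562 (Pcdh8), chrX:133688994-133689243 (Pcdh19), chr14:88471397-88471646 (Pcdh20) and chr14:93890680-93890929 (Pcdh9), all on the minus strand.
Pcdh8: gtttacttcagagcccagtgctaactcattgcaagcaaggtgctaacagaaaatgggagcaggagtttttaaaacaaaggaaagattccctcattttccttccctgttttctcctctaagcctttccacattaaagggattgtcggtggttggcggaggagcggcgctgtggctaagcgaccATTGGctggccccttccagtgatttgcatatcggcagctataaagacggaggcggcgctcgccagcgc
Pcdh19: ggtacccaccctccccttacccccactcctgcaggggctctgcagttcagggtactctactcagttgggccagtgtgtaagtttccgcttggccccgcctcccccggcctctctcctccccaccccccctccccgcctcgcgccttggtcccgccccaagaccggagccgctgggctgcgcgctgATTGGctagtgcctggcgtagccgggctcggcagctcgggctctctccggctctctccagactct
Pcdh20: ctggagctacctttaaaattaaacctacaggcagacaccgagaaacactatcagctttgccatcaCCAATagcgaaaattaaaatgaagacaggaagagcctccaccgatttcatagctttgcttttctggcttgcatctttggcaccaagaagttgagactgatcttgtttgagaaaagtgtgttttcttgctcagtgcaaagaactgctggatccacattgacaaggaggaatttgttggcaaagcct
Pcdh9: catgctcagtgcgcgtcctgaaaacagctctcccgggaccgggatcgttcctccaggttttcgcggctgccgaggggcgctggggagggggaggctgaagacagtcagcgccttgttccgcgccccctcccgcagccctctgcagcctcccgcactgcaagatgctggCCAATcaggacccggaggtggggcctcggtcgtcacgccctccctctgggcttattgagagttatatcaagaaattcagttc
On either strand, CCAAT occurred in the windows of 8 of the 9 genes and not in that of Pcdh7, and in 33.85% of all 32851 RefSeq windows of this length. The motif was chosen after the sequences had been read. TATAAA was present upstream of the matched starts of Pcdh8 and Pcdh15 (12.37% of all windows). The matched start of Pcdh15 lies 722525 bases inside the span of its row, so its window in all these counts is not at the edge of the row. For Pcdh7 the matched start lies 114 bases inside, so part of its window falls within the row. TGACG was present upstream of Pcdh10 and Pcdh9 (17.77%). CGCT, the core of the element found in many clustered protocadherin promoters, was in all 9 windows beside 55.67% of all windows. GC content ran from 42.4% for Pcdh20 to 69.2% for Pcdh19, beside a median of 52.4% over all windows. Pcdh20 also had the fewest CpG pairs, 3, against 23 for Pcdh18 and a median of 6 over all windows. A match describes the letters of the window and no binding was measured.

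The C-type genes Pcdhac1, Pcdhac2, Pcdhgc3, Pcdhgc4 and Pcdhgc5 sit at the 3′ end of the alpha and gamma arrays and largely stand outside the random choice of the other genes. Their median was 3.91 FPKM, beside 1.02 FPKM for the 48 other clustered genes. Pcdhgc5 had 57.8, 47.7, 61.1, 38.1, 49.4, 26.8, 49.8 and 63.1 CPM. Pcdhgc3, which binds the Wnt pathway protein Axin1, had 37.8, 36.0, 35.1, 23.6, 40.1, 40.1, 43.1 and 33.4 CPM. Pcdhac2, needed for the even spacing of serotonergic axons, had 29.7, 19.98, 27.4, 16.4, 24.0, 19.2, 20.3 and 29.1 CPM. In CAA mock 2 and CAA stress 1, where the serotonin neuron markers were high, Pcdhac2 was at 19.2 and 20.3 CPM, within the range of the other libraries. Pcdhgc4, needed for the survival of many interneurons, was the steadiest of the 5 at 7.75 to 9.96 CPM. Pcdhac1 was the weakest, at 1.102 CPM in WT stress 2 to 3.98 CPM in WT mock 1.

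Among the other alpha genes, counts per kilobase of exon bases owned by 1 gene (mean of 8 libraries) ran from 0.16 CPM per kb for Pcdha8 to 1.94 CPM per kb for Pcdha12. The C-type Pcdhac2 reached 7.68 CPM per kb at the end of the array, and Pcdhac1 beside it 0.90. In the beta array, the strongest gene was Pcdhb9 at 4.64 CPM per kb and the weakest was Pcdhb4 at 0.50. In the gamma array, Pcdhgc3 was highest at 19.8 CPM per kb and Pcdhgb5 lowest at 0.82. Of the exon bases of Pcdhgc3, 33.12% were its own, against 60.39% for Pcdhgc5. By FPKM, which uses the whole exon length, these genes stood at 6.51 ± 1.07 and 6.39 ± 1.58 FPKM. The lowest gamma gene by FPKM was Pcdhga1 at 0.45 FPKM. The rank of a gene along its array and its level per own kilobase had Spearman's rho 0.37 over 10 alpha, 0.18 over 21 beta and 0.21 over 17 gamma genes without the C-type genes. These values describe genes that share libraries, and the alpha and gamma genes also share exons.

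**Figure D2:**
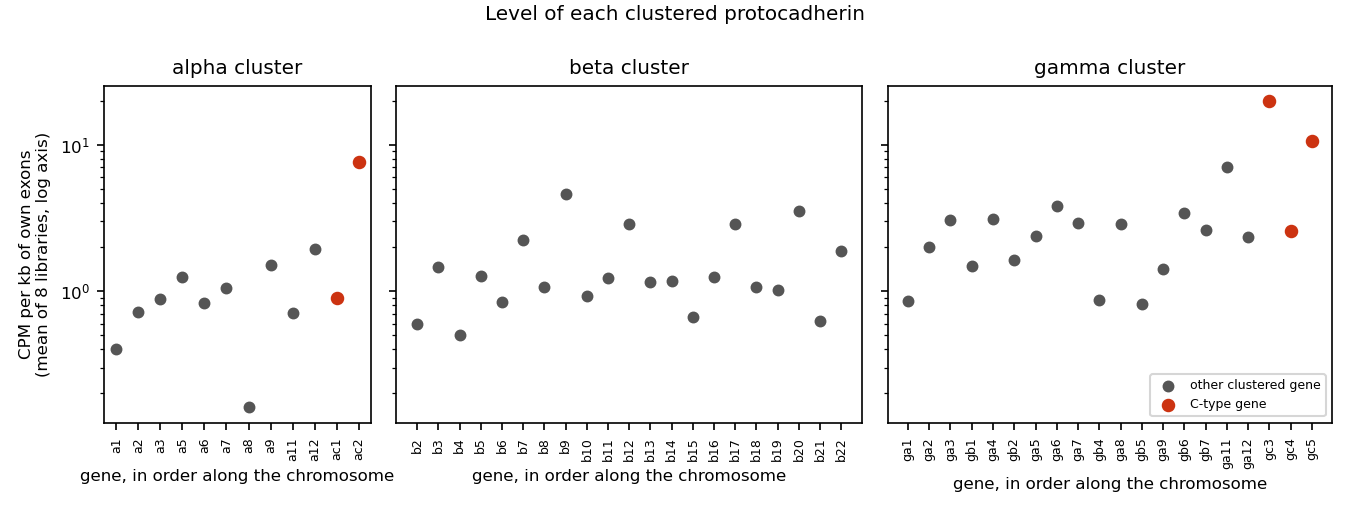
Mean level of each clustered protocadherin over 8 libraries (y axis, CPM per kilobase of exon bases that no other gene covers, log axis) in order along the alpha, beta and gamma arrays (x axis), with the C-type genes in red. Pcdhac2, Pcdhgc3 and Pcdhgc5 stand highest, while Pcdhac1 (0.90) and Pcdhgc4 (2.56) lie within the range of the other genes.

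The clustered genes differed between libraries of the same group. In WT stress, 44 of the 52 tested clustered genes were higher in library 1 than in library 2, with a median difference of 0.40 on the log2 scale, while 49.7% of all genes were. The alpha genes had a median of 0.74 and the gamma genes 0.50 in that pair, against 0.21 for the beta genes. In CAA stress the tilt ran the other way, with 11 of 52 higher in library 1 and a median of -0.24. Each mock group had 26 of 52 higher in library 1. Within CAA mock, however, 9 of 11 alpha genes were higher in library 1 (median 0.75), while the beta genes had a median of -0.16 and the gamma genes -0.01.

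Single libraries stood apart accordingly. In WT stress 1, 43 of the 52 clustered genes were above their own 8-library mean and 19 had their highest value there. In WT stress 2, 16 of 52 were above their mean and 13 had their lowest value there. CAA mock 2 also had 16 of 52 above, with 1 of 11 alpha genes among them, and CAA stress 2 had 39 of 52. Summed over the alpha genes, the level was 55.5, 42.1, 55.5, 35.1, 48.5, 34.8, 44.2 and 56.9 CPM in the order used above. The gamma sum was 208.6, 206.5, 228.3, 155.5, 188.0, 162.0, 201.6 and 221.4 CPM, and it was lowest in the same libraries as the alpha sum, WT stress 2 and CAA mock 2. The beta sum was 134.1, 140.8, 155.2, 126.5, 119.0, 120.8, 110.9 and 130.1 CPM. The non-clustered sum was the most even, between 887.2 CPM in CAA stress 1 and 1013 CPM in WT mock 1. Choroid plexus markers were high in WT stress 2, and striatal markers low and serotonin neuron markers high in CAA mock 2. Choroid plexus and serotonin neuron markers were also high in CAA stress 1, with alpha and gamma sums of 44.2 and 201.6 CPM. Striatal markers were also low in WT mock 1, with sums of 55.5 and 208.6 CPM. The part of these markers in the low alpha and gamma sums was not tested.

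**Figure D3:**
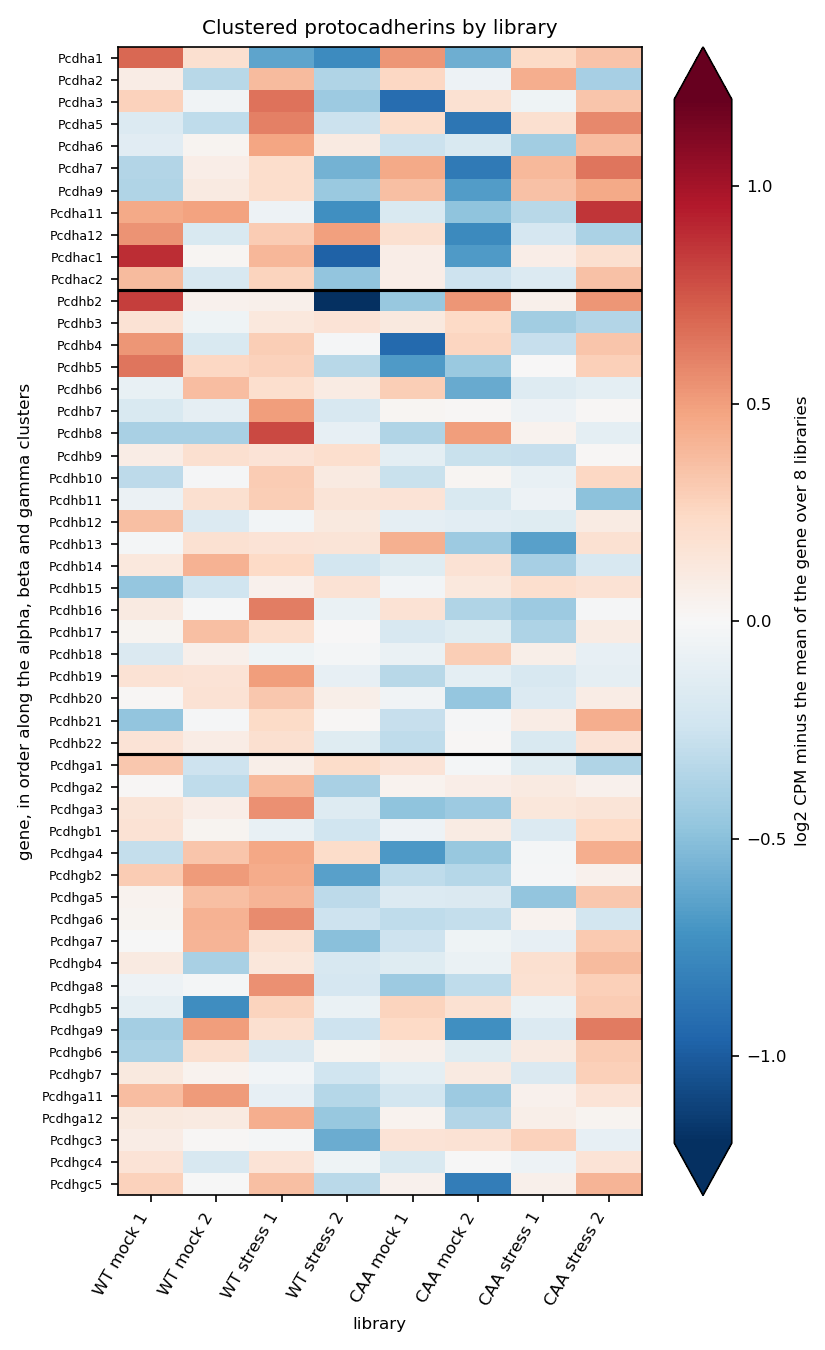
Log2 CPM of each tested clustered gene (rows, in array order) in each library (columns), minus the gene's mean over the 8 libraries; red is above and blue below the mean. The column of WT stress 1 is mostly red (43 of 52 genes above their mean) and that of WT stress 2 mostly blue (16 of 52).

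**Figure D4:**
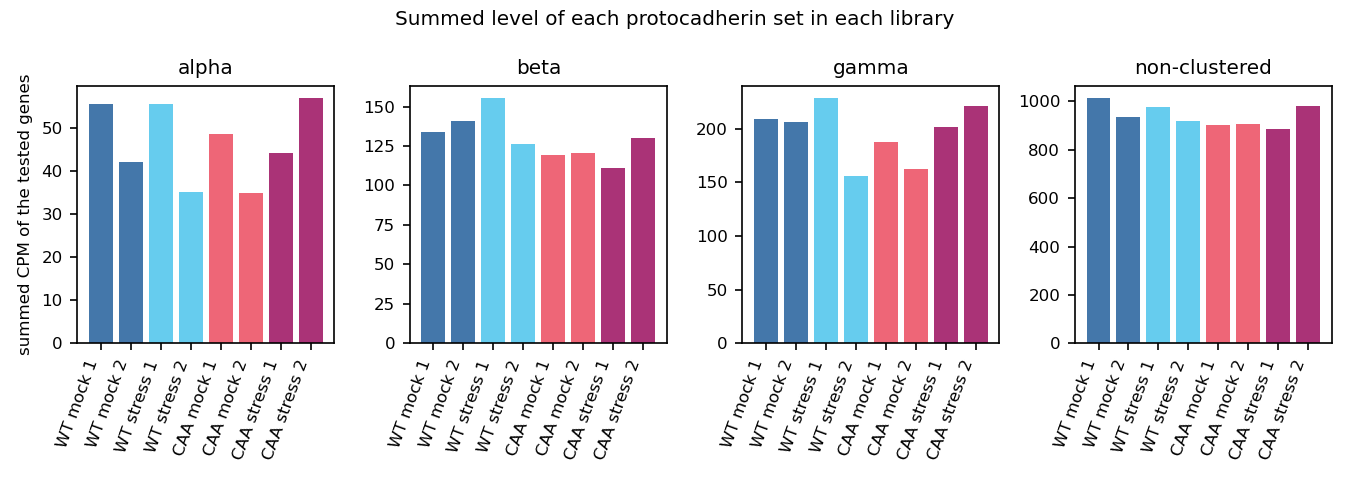
Summed CPM of the tested alpha, beta, gamma and non-clustered genes (y axes, from 0) in each of the 8 libraries (x axes), coloured by group. The alpha sum was near 35 CPM in WT stress 2 (35.1) and CAA mock 2 (34.8), while the non-clustered sum stayed between 887.2 and 1013 CPM.

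The spread of the clustered genes between libraries of a group was taken from edgeR estimates, which are drawn toward the trend over genes with like counts. Closeness to that trend is therefore partly built in. Below the trend were 40 of the 52 tested clustered genes, among them 20 of 21 beta genes, beside 12182 of all 17182 genes. The median biological coefficient of variation was 0.236 for the clustered genes, and the trend over all genes at their abundance gave 0.265. For the non-clustered genes it was 0.168 beside a trend of 0.157. For all genes the median was 0.188. For the alpha genes it was 0.310 beside a trend of 0.330, for the beta genes 0.234 beside 0.256 and for the gamma genes 0.222 beside 0.248. Among the C-type genes it was 0.216, above the 0.175 of the trend.

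The comparison of CAA with WT asks how the brains of CAA mice differ from those of WT mice. Vascular amyloid cannot be told apart in it from the transgene and strain, which were not given. Averaged over mock and stress, no protocadherin passed edgeR's quasi-likelihood test (Benjamini-Hochberg adjusted over all genes, threshold 0.05), while 0.0116% of the 17182 genes tested did. DESeq2 called none of the 63 either, beside 46 of all 17182 genes. At an unadjusted p under 0.05, edgeR listed 3 of 63, Pcdh8, Pcdh20 and Pcdhb9, beside 8.38% of all genes. The shares under mock and under stress were 3 of 63 beside 4% and 1 of 63 beside 8.22%, with 0 passing the adjusted threshold in each beside 0.0116%.

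Pcdh8 had the smallest adjusted p of the protocadherins in this comparison. Its mean was 34.3 ± 8.34 CPM in the CAA libraries and 24.7 ± 1.94 CPM in the WT libraries (SD, n = 4 each; log2 fold change 0.46 ± 0.15 SE, edgeR adjusted p = 0.537). Under stress the difference was 0.70 ± 0.22 (edgeR adjusted p = 0.579), and it was 0.44 without CAA stress 2, the library with 45.1 CPM. An exact two-sided permutation test of 4 against 4 libraries gave p = 0.114 for Pcdh8, or 0.229 after adjustment over the 6 such tests run, where the smallest p possible is 0.0286 and the smallest possible for a single gene after adjustment is 0.171, so no one of the 6 could pass alone. Pcdh7 had 193 ± 19.5 CPM in the WT libraries and 161 ± 15.4 CPM in the CAA libraries (log2 fold change -0.26 ± 0.12, edgeR adjusted p = 0.598; exact permutation p = 0.0571, adjusted 0.171). The log2 fold changes of Pcdh10 and Pcdh11x were -0.18 ± 0.11 and -0.19 ± 0.13. Pcdh20 had -0.35 ± 0.16 (edgeR adjusted p = 0.590; exact permutation p = 0.286), and -0.15 without WT mock 1. None of these differences passed the threshold after adjustment. Several shrank when libraries were left out: Pcdh7 was -0.148 in the 6 libraries with Y-linked counts, and Pcdh10 was -0.109 without WT mock 2. Leaving out WT stress 1 or CAA stress 2 gave -0.113 or -0.114 for Pcdh11x. The signs did not change: all alternatives gave -0.346 to -0.148 for Pcdh7, -0.248 to -0.109 for Pcdh10 and -0.266 to -0.113 for Pcdh11x.

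More clustered genes had lower than higher values in CAA, and none passed the test. Of 52, 34 had a log2 fold change below 0 (median -0.14), beside 49.8% of all genes tested (median 0.00) and 7 of 11 non-clustered genes (median -0.02). The beta genes had the largest such share, with 16 of 21 below 0 and a median of -0.21, followed by gamma with 12 of 20 (-0.09) and alpha with 6 of 11 (-0.01). Without WT stress 1, the library highest in clustered genes, 23 of 52 were below 0 and the median was 0.05. Of the excitatory neuron markers, 10 of 12 were below 0 (median -0.13), and 12 of 12 myelin markers were above 0 (median 0.38). Other lists tilted as much. Below 0 were 11 of 12 endothelial (median -0.17) and 11 of 12 striatal markers (-0.36), and above 0 were 12 of 12 oligodendrocyte precursor markers (0.28). Of 12 interneuron markers, 6 were below 0 (median 0.05). The beta count was 14 of 21 without WT stress 1 and 14 to 18 over all libraries left out in turn. WT and CAA each held 1 library with high Xist counts, and with the other 6 libraries alone 29 of 52 clustered and 14 of 21 beta genes were below 0.

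Of the single clustered genes, Pcdhb9 and Pcdhb19 had all 4 CAA libraries below all 4 WT libraries, which held for 2.76% of all genes. None had all 4 CAA libraries above, beside 2% of all genes. Pcdhb9 had 15.01, 16.1, 15.8 and 16.2 CPM in the WT libraries and 13.0, 11.7, 11.6 and 14.2 CPM in the CAA libraries, so the groups stood next to each other with no overlap (log2 fold change -0.32 ± 0.14, edgeR adjusted p = 0.587). Pcdhb19 had 8.07, 8.03, 10.1 and 6.67 CPM in WT and 5.67, 6.59, 6.27 and 6.64 CPM in CAA (-0.39 ± 0.19, edgeR adjusted p = 0.612). The lowest WT value, 6.67, and the highest CAA value, 6.64, were nearly equal. Further named genes were Pcdhb5 (-0.43 ± 0.23), Pcdhga6 (-0.41 ± 0.20), Pcdhga3 (-0.34 ± 0.19), Pcdha12 (-0.56 ± 0.28), and, with positive values, Pcdhgc3 (0.25 ± 0.15), Pcdha7 (0.36 ± 0.35) and Pcdha9 (0.26 ± 0.28). Leaving out CAA mock 1 turned the values of Pcdha7 and Pcdha9 to -0.039 and -0.042. Without WT stress 1 the values were -0.22 for Pcdhb19, -0.27 for Pcdhb5, -0.18 for Pcdhga6, -0.14 for Pcdhga3 and 0.41 for Pcdhgc3, which was 0.12 without WT stress 2. Pcdha12 was -0.36 without WT mock 1 or without CAA mock 2, and -0.16 without both. None of these 9 clustered genes passed edgeR's test.

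Within the mock libraries alone, 35 of 52 clustered genes had values below 0 for CAA (median -0.24), and within the stress libraries 26 of 52 (median 0.00). Of the alpha and gamma genes, 7 of 11 and 14 of 20 were lower under mock, and 3 of 11 and 7 of 20 under stress. The beta genes were 14 of 21 lower under mock and 16 of 21 under stress. The median under stress was 0.23 without WT stress 1 and -0.24 without WT stress 2. Among single genes under mock, Pcdhga11 had -0.77 ± 0.23, Pcdhb5 had -1.02 ± 0.33 and Pcdh19 had 0.55 ± 0.18 (edgeR adjusted p = 0.998 for each). Pcdh19 was 0.33 without WT mock 2. Of 12 excitatory neuron markers, all tested, 12 were likewise below 0 for CAA under mock (median -0.28), and 12 of 12 myelin markers were above 0 (median 0.47). Below 0 too were 12 of 12 striatal (median -0.44), 11 of 12 endothelial (-0.15) and 6 of 12 interneuron markers (-0.05). Under stress, 6 of 12 excitatory neuron markers were below 0 (median 0.03). Pcdhga11 and Pcdhb5 were singled out under mock after their values were seen.

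**Figure D5:**
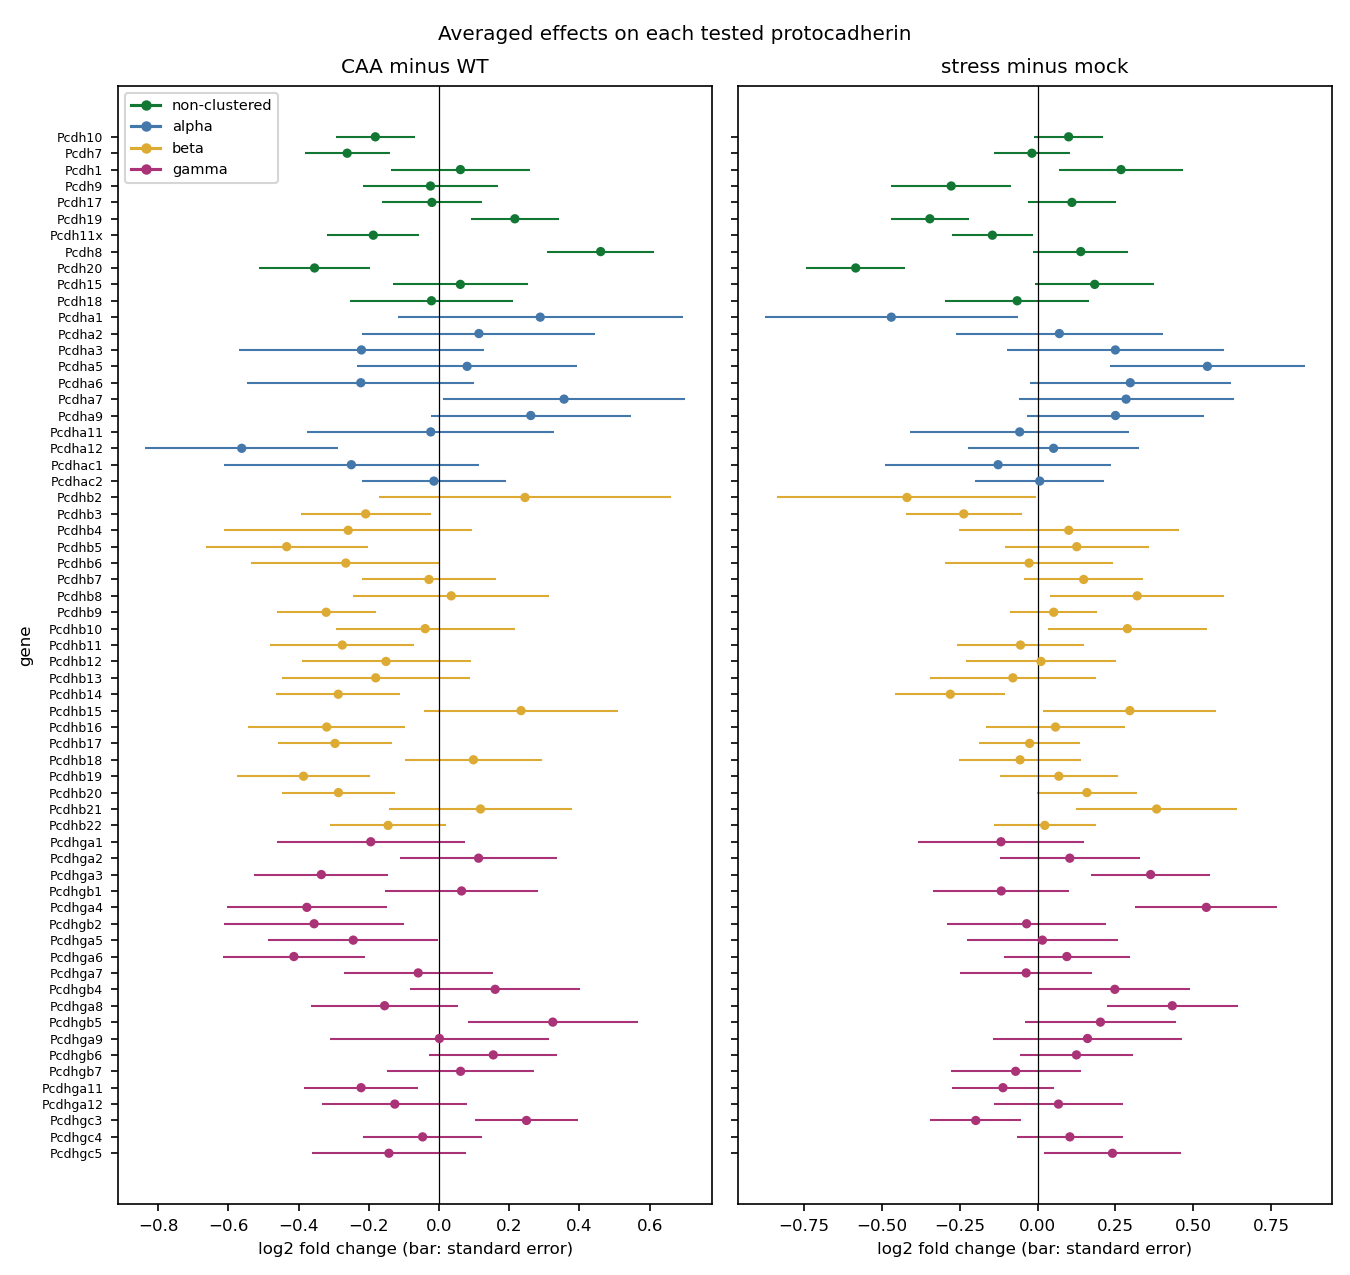
Log2 fold change of each of the 63 tested protocadherins (rows) for CAA against WT (left) and stress against mock (right), each averaged over the other factor, with bars of 1 standard error. Most beta genes lie left of 0 for CAA (16 of 21), and Pcdh20 (-0.58) is farthest left for stress; no gene passed edgeR's test.

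The comparison of stress with mock asks what chronic restraint changes in either genotype. Averaged over genotypes, 0 of 63 protocadherins and 0% of all genes passed edgeR's test. DESeq2 called none of the 63, beside 3 of all 17182 genes. At an unadjusted p under 0.05 there were 3 of 63, Pcdh20, Pcdh19 and Pcdhga4, beside 3.82% of all genes. In WT alone there was 1 of 63, Pcdhga11 (-0.66 ± 0.23), beside 1.59%. In CAA alone there were 4 of 63, Pcdh19, Pcdh20, Pcdhga4 and Pcdhga3, beside 6.94%. In each genotype taken alone, 0 of 63 passed the adjusted threshold with edgeR or DESeq2, beside 0% of all genes with edgeR. With DESeq2, 0 of all 17182 genes passed in WT and 14 in CAA.

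Pcdh20 was 30.7 ± 7.45 CPM in the mock libraries and 20.7 ± 3.78 CPM in the stress libraries (SD, n = 4 each), with no overlap. It was the single protocadherin with all 4 stress libraries below all 4 mock libraries, beside 0.867% of all genes. The log2 fold change was -0.58 ± 0.16 (edgeR adjusted p = 0.920), and an exact permutation test gave the smallest p possible, 0.0286, or 0.171 after adjustment over 6 tests, the limit named above. Pcdh20 was among the genes chosen for this test with its values known. Taken by genotype, the values were -0.48 ± 0.22 in WT and -0.69 ± 0.22 in CAA, and the WT value was -0.072 without WT mock 1 and -0.80 without WT mock 2. Without WT mock 1 the averaged value was -0.38, and without both libraries low in striatal markers, which are mock libraries, it was -0.34. For Pcdh9 the averaged value of -0.28 ± 0.19 became 0.12 without those 2 libraries, and leaving out 1 mock library at a time gave -0.44 to -0.065. Each mock group held 1 such library and the stress groups held none.

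Pcdh19 had a mean of 69.7 ± 17.5 CPM in mock and 53.9 ± 3.62 CPM in stress libraries (log2 fold change -0.35 ± 0.13, edgeR adjusted p = 0.920; exact permutation p = 0.171), and it was -0.22 without WT mock 1. The value was -0.68 ± 0.18 in CAA (edgeR adjusted p = 0.696). Both CAA mock libraries were above the other 6, a pattern shared by 3.47% of all genes. The CAA values under mock and the stress values in CAA rest on the same 2 CAA mock libraries. Pcdh1 had 0.61 ± 0.28 for stress in CAA (edgeR adjusted p = 0.696), with CAA mock 2 at 86.7 CPM and CAA stress 2 at 225.8 CPM as the extremes. Leaving out CAA mock 2 gave 0.23, leaving out CAA stress 2 gave 0.31 and leaving out CAA mock 1 gave 1.13.

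More clustered genes had higher than lower values under stress in CAA, and none passed the test. There, 38 of 52 had a log2 fold change above 0 (median 0.19), while 48.6% of all genes were below 0 (median 0.01). Above 0 were 17 of 20 gamma, 9 of 11 alpha and 12 of 21 beta genes. Without CAA stress 2 the clustered count was 29 of 52 and the median 0.027. For stress in CAA, 9 of 12 excitatory neuron markers were also above 0 (median 0.38), and 12 of 12 myelin markers were below 0 (median -0.43). Above 0 too were 12 of 12 striatal (median 0.70), 10 of 10 olfactory bulb (1.61) and 10 of 12 interneuron markers (0.22). The same held for 11 of 12 hypothalamic (0.78), 15 of 16 choroid plexus (0.83) and 10 of 12 fibroblast and meningeal markers (0.55). Astrocyte and microglial markers had 10 of 12 below 0 each (medians -0.29 and -0.15). In WT, 27 of 52 clustered genes were above 0 (median 0.02), and the median was -0.25 without WT stress 1. Averaged over genotypes, 34 of 52 were above 0 (median 0.07), and 22 of 52 without WT stress 1. Pcdhga4 had 0.54 ± 0.23, Pcdhga8 had 0.43 ± 0.21, Pcdhga3 had 0.36 ± 0.19, Pcdha5 had 0.55 ± 0.31 and Pcdha6 had 0.30 ± 0.32 (edgeR adjusted p = 0.924 for Pcdha6 and 0.920 for the others). Of the genes with negative values, Pcdhb14 had -0.28 ± 0.18, Pcdhb3 had -0.24 ± 0.19 and Pcdha1 had -0.47 ± 0.41. Without WT stress 1 the values were 0.22 for Pcdhga8, 0.17 for Pcdhga3, 0.30 for Pcdha5 and 0.20 for Pcdha6. Pcdha6 was 0.076 without CAA stress 2, Pcdha5 was 0.32 without CAA mock 2, Pcdha1 was -0.14 without CAA mock 1 and Pcdhb14 was -0.17 without WT stress 2. Pcdhb21 was the single protocadherin with all 4 stress libraries above all 4 mock libraries, beside 0.96% of all genes. Its levels were 1.88, 2.58, 2.16 and 2.59 CPM in mock and 3.07, 2.65, 2.78 and 3.54 CPM in stress (0.38 ± 0.26, edgeR adjusted p = 0.920).

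The interaction asks whether stress acts differently in the 2 genotypes. It called 0 of 63 protocadherins and 0% of all genes with edgeR. DESeq2 called none of the 63, beside 4 of all 17182 genes. Pcdhga11, Pcdh19 and Pcdhb5 had an unadjusted p under 0.05, 3 of 63 beside 3.46% of all genes, with 1.09 ± 0.33, -0.67 ± 0.25 and 1.17 ± 0.46 (edgeR adjusted p = 0.995 for each). The interaction was above 0 for 35 of 52 clustered genes (median 0.24), among them 17 of 20 gamma genes and all 5 C-type genes, while 49.6% of all genes were below 0. Its median was -0.01 without WT stress 2, the library lowest in gamma genes, and 0.032 without CAA stress 2. The interaction was above 0 for 10 of 12 excitatory neuron markers as well (median 0.42). It was above 0 for 7 of 12 interneuron markers (median 0.17) and below 0 for 15 of 16 choroid plexus markers (-0.77). The mean log2 level of the excitatory neuron markers relative to each gene's own mean was 0.37, 0.041, -0.017, -0.055, -0.092, -0.30, -0.24 and 0.30 in the library order used above. The part of these markers in the values of the clustered genes was not tested.

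Genes that act on or with protocadherins did not pass edgeR's test in any comparison either. Of 24 tested regulators of the clustered promoters, 17 had a negative value for CAA averaged over treatments (median -0.12). Smchd1, a chromatin silencer of clustered protocadherins, had 36.0 ± 1.53 CPM in the WT libraries and 29.9 ± 2.67 CPM in the CAA libraries (-0.27 ± 0.12), and Smc3, a cohesin subunit, was 54.9 ± 2.89 and 46.5 ± 5.01 CPM (-0.24 ± 0.11). Under stress, 16 of 24 regulators were above 0 (median 0.05). Dnmt3a, a DNA methyltransferase, was 44.9 ± 6.39 CPM in mock and 54.0 ± 6.48 CPM in stress libraries (0.28 ± 0.11). Of 31 signalling and cleavage partners, 17 were lower in CAA (median -0.04), and the kinase receptor Ret, which binds clustered protocadherins, rested on 4.74 ± 1.19 CPM in WT, against 13.4 ± 6.09 CPM in the CAA libraries (1.498 ± 0.37, edgeR adjusted p = 0.508). Wasf2, of the WAVE complex, was at 20.8 ± 1.65 and 26.0 ± 3.05 CPM (0.32 ± 0.14). Under stress, 17 of 31 partners were below 0 (median -0.02).

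The other cadherins were set beside the protocadherins as relatives. Of the 36 tested, 21 were above 0 for CAA (median 0.04), and 22 for stress (median 0.13). Under stress in CAA alone, 24 of 36 were above 0 (median 0.26), and for the interaction 28 of 36 (median 0.24). Celsr3, a guidance cadherin of axon tracts, was 27.2 ± 4.87 CPM in mock and 36.8 ± 9.63 CPM in stress libraries (0.43 ± 0.16), and Fat1 was 28.1 ± 3.48 and 39.2 ± 11.5 CPM (0.47 ± 0.18). Both had an edgeR adjusted p of 0.920. For CAA, Cdh6 was 30.4 ± 9.35 CPM in the WT libraries and 21.6 ± 4.64 CPM in the CAA libraries (-0.48 ± 0.22). Fat2, also a marker of cerebellar granule cells, had 0.17 ± 0.066 and 0.76 ± 0.50 CPM (2.15 ± 0.70, edgeR adjusted p = 0.536).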

How the data were processed

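Raw counts of reads per gene were deposited by the authors for 8 libraries, made with HISAT2 2.0.5 and featureCounts 1.5.0-p3 on mm10, per the submitters' processing notes; strandedness and the treatment of reads in shared exons were not given in the sources used here. FPKM values, made by the authors from those counts, were deposited in a second table and used for levels per length. Groups came from the sample titles. The count test was edgeR 4.0.16 under R 4.3.3 (TMM scaling, filterByExpr with a minimum count of 10 and a minimum total of 15, robust quasi-likelihood fit of 4 group means over all 8 libraries, 7 comparisons, two-sided, Benjamini-Hochberg over 17182 genes, threshold 0.05). The procedure was tested on simulated data. DESeq2 1.42.0 and limma 3.58.1 (on log2 FPKM) served as alternatives, with other scaling, no filter, a replicate block and libraries left out; overlapping genes came from GENCODE vM21. Log2 fold changes carry standard errors, and levels carry SDs; both rest on 2 libraries a group.

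Members, lists, comparisons and tests were chosen with earlier results of these data known. Named were all non-clustered genes, the C-type genes, the highest and lowest gene of each array per length, the 3 genes of each array with the smallest p in each averaged comparison, and up to 4 genes of each list; other genes were chosen after their values were seen. Lists of region and cell type markers were given as levels per library. For some lists the signs and medians of the log2 fold changes were also set beside those of the clustered genes, without a test. Libraries with the same number did not deviate together (correlations from -0.35 to 0.17 over 9921 genes), so the numbers were not used as pairs.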

Additional observations from a re-analysis of the deposited data

How the results depend on the processing

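No protocadherin passed the threshold in any of the 7 comparisons with edgeR under TMM or DESeq2 scaling, with DESeq2, with limma on log2(FPKM + 1) or log2(FPKM + 0.1), or without any single library. Without a filter on low counts, 1 passed for stress in CAA (Pcdh19, -0.69, adjusted p = 0.0479) and 1 for stress averaged over genotypes (Pcdh20, -0.58, adjusted p = 0.0457); that setting called 112 and 49 of 29446 genes in those comparisons, against 0 and 0 of 17182, and the cause was not tested. Over all genes the calls ran from 11 to 223 a comparison without the filter and from 0 to 46 with DESeq2, against 0 to 2.

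The median of the clustered genes minus that of the non-clustered genes was -0.12 for CAA. It was -0.21 to 0.12 with libraries left out in turn (highest without WT stress 1) and 0.057 without the 2 libraries low in striatal markers. For stress it was 0.09, with a range of -0.13 (without WT stress 1) to 0.16. Signs also turned for Pcdh8 in CAA under mock (0.22, and -0.045 and 0.44 without CAA mock 1 and 2), for Pcdha7 and Pcdha9 in CAA (-0.039 and -0.042 without CAA mock 1, 0.61 and 0.48 without CAA mock 2) and for Pcdh9 under stress (0.12 without the 2 libraries low in striatal markers). The cause was not tested.

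The replicate numbers did not pair the libraries, and with the number as a replicate block 0 protocadherins passed in each of the 7 comparisons. With that block 33 of 52 clustered genes were lower in CAA, against 34. The permutation tests were not repeated with libraries left out. At a median of 86.5 counts a library for the clustered genes and 2 libraries a group, only large differences could pass, and a p that misses the threshold does not show that levels were equal.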

Other observations

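Pcdhgb8, listed as a polymorphic pseudogene and so outside the protein-coding rows, had 25 and 24 counts in WT mock, 45 and 33 in WT stress, 23 and 15 in CAA mock and 22 and 42 in CAA stress. Its highest library, WT stress 1, was also the one in which most clustered genes were above their mean, and its lowest was CAA mock 2. Noncoding genes that overlap non-clustered protocadherins had few counts, with 37 to 94 for 4932441J04Rik over Pcdh7 and 0 to 7 for Gm9748 over Pcdh8.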
